A study of Homo sapiens with 6 samples.

Results

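The 39 HOX genes, which encode homeodomain transcription factors, were followed in A549 cells with and without the MIR21 gene. All rows of the deposited table that are listed as protein-coding and whose symbol is HOXA, HOXB, HOXC or HOXD followed by a number were taken, which gave 39 of 58174 genes. They lie in 4 clusters on the GRCh38 genome, with 11 genes in the HOXA cluster (chromosome 7), 10 in the HOXB cluster (chromosome 17, 48528526 to 48729178), 9 in the HOXC cluster (chromosome 12, 53938765 to 54056030) and 9 in the HOXD cluster (chromosome 2, 176092891 to 176190907). A549 is an established human cell line from a lung adenocarcinoma. Parental A549 cells (Ctrl) were compared with A549 cells from which the MIR21 locus had been removed by CRISPR/Cas9 with a pair of guide RNAs (MIR21-KO), with 3 polyA RNA-seq libraries per group, from cells collected 48 h after seeding. MIR21 encodes miR-21-5p, an abundant microRNA of many tumors. MIR21-KO cells were grown up from single sorted cells, whereas Ctrl cells were the uncloned parental population. The sources do not say how many clones these 3 libraries represent, so that differences between clones and the deletion cannot be told apart, and p-values measure only the spread between these libraries.

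HOX genes specify position along the body axis in the embryo. Within a cluster they are transcribed from one strand and are numbered from the 3' end (group 1, anterior) to the 5' end (group 13, posterior), and genes with the same number in different clusters are paralogues. Adult cells and cell lines keep a pattern of active and silent HOX genes, in which Polycomb complexes hold genes silent, trithorax-type methyltransferases keep them active, and retinoic acid activates genes at the 3' end in particular. HOX proteins bind DNA together with TALE homeodomain cofactors such as PBX and MEIS proteins. The clusters also encode antisense RNAs and microRNAs (miR-10, miR-196, miR-615), and miR-196 is known to act on several HOX mRNAs.

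Levels were FPKM, in which the fragments of a gene are divided by its length and by the library size. Reads recovered from these values summed to between 10631667 and 14345209 per library, so a single read corresponded to 0.0731 to 0.0930 FPKM for a gene 1 kb long. Fold changes are differences of log2(FPKM + 0.1), MIR21-KO minus Ctrl, given with their SE, and they understate the change of genes near 0. Only genes that averaged 0.5 FPKM or more over the 6 libraries entered the limma test, and a gene was called at a Benjamini-Hochberg FDR under 0.01 over all 16006 genes tested. The MIR21 row read 0 FPKM throughout, in Ctrl as in MIR21-KO, and since polyA libraries do not capture mature miRNAs it is no check of the knockout. Keratins of an epithelial line were abundant in all libraries (KRT8 at 352 to 499 FPKM), whereas the lung lineage markers NKX2-1 and SFTPA1 had no read in any library and SFTPB and SFTPC had at most 4. The other 3 of the 7 lung lineage markers, FOXA1 and FOXA2 among them, passed the minimum level. The 7 summed to 17.2 to 18.7 FPKM in Ctrl and 12.6 to 13.6 FPKM in MIR21-KO.

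HOX transcripts were more abundant in MIR21-KO cells. Of the 39 genes, 27 passed the minimum level, 15 of these were called higher and 0 lower. Across the transcriptome, 7.66% of the tested genes were called higher and 8.38% lower. The 15 genes were HOXA2, HOXA3, HOXA4 and HOXA5, then HOXB2, HOXB3, HOXB4, HOXB5, HOXB8 and HOXB9, then HOXC4, HOXC6 and HOXC10, and lastly HOXD9 and HOXD10. HOXA4, HOXB4, HOXD9 and HOXD10 were under 0.5 FPKM on average in Ctrl and entered the test through their MIR21-KO values, so they had to differ to be tested. Among the 23 genes with a Ctrl mean of at least 0.5 FPKM, 11 were called higher. When the 36 HOX genes with a read were tested without any minimum, 11 were called higher and 0 lower, where 3.06% of the 29384 genes with a read were called higher, and their median log2 fold change was 0.90, where that of all genes was 0.031. The separation of the libraries was counted without regard to the test. In 26 of the 36 genes with a read the 3 MIR21-KO values lay above all 3 Ctrl values and in 1 below, where 16.8% and 15.8% of genes with a read were separated in that way. The number called higher depended on the libraries. It was 6 when Ctrl replicate 1 or 2 was left out and 5 when Ctrl replicate 3 was. Of the MIR21-KO replicates, leaving out the first gave 10 genes, the second 5 and the third 13. HOXA3, HOXA5, HOXB3, HOXB8 and HOXB9 were called under each of the 14 alternatives run at this FDR. The other 10 were called under 4 to 10 of them, and the highest FDR that any of the 15 reached was 0.0468, for HOXD10.

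Summed over the 39 genes, HOX transcripts reached 105, 105 and 106 FPKM in the Ctrl libraries and 218, 206 and 188 FPKM in the MIR21-KO libraries. The Ctrl sums were nearly equal (SD 0.853 FPKM) and all 3 MIR21-KO sums stood far above them, with a ratio of the means of 1.94. Each cluster contributed, with ratios of 2.24 for HOXA, 1.85 for HOXB, 1.71 for HOXC and 3.22 for HOXD. The HOXB cluster carried the largest part in both groups, 58.3% to 60.4% of the summed FPKM in Ctrl and 56.7% to 57.3% in MIR21-KO. HOXD genes made up 1.57% to 2.08% of the sum in Ctrl and 2.86% to 3.32% in MIR21-KO. Libraries of pooled cells do not tell whether more cells expressed a gene or each cell held more of its RNA.

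**Figure D1:**
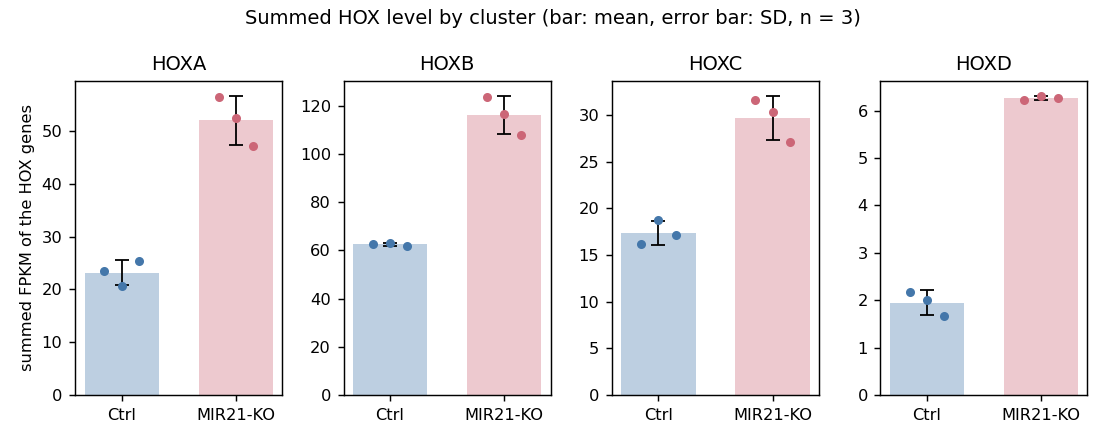
Summed FPKM of the HOX genes of each cluster (vertical axis, linear, a scale per panel) in Ctrl and MIR21-KO, with bars for the mean, error bars for the SD and points for the 3 libraries of each group. In each of the 4 clusters the MIR21-KO libraries lie above the Ctrl libraries, with ratios of the means between 1.71 and 3.22.

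In the HOXA cluster the rise was found in a block of neighbouring genes, HOXA2 to HOXA5. HOXA5 (ENSG00000106004, 27141052 to 27143668), a factor of lung and thoracic patterning, had 2.72, 2.02 and 3.598 FPKM in Ctrl and 14.6, 13.6 and 11.5 FPKM in MIR21-KO. Every MIR21-KO library thus held at least 3 times the level of any Ctrl library, and the fold change was, with that of HOXD9, the largest among the HOX genes tested (fold change 2.24 ± 0.21 on the log2 scale, FDR = 0.000639). HOXA3 (ENSG00000105997, 27106184 to 27152581), required for pharyngeal organs such as thymus and parathyroid, was the most abundant HOXA transcript, with 6.06, 5.36 and 6.71 FPKM in Ctrl and 20.01, 18.9 and 17.3 FPKM in MIR21-KO. The 2 groups were far apart and the spread within them small (fold change 1.62 ± 0.11 on the log2 scale, FDR = 0.000186). HOXA4 (ENSG00000197576, 27128507 to 27130799) had 0.675, 0.266 and 0.502 FPKM in Ctrl and 2.31, 2.48 and 1.59 FPKM in MIR21-KO, where the Ctrl values rested on 15, 5 and 12 reads. These groups did not overlap either (fold change 1.98 ± 0.33 on the log2 scale, FDR = 0.00534), but HOXA4 entered the test through its MIR21-KO values. HOXA2 (ENSG00000105996, 27100354 to 27102811), which patterns hindbrain and second-arch structures, had 1.53, 1.13 and 1.22 FPKM in Ctrl and 4.42, 3.36 and 2.57 FPKM in MIR21-KO. Its MIR21-KO libraries were uneven, yet all above the highest Ctrl library at 1.53 FPKM (fold change 1.32 ± 0.22 on the log2 scale, FDR = 0.00566).

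On the 5' side of that block no HOXA gene was called. HOXA6 had 0.856, 0.579 and 0.797 FPKM in Ctrl and 1.37, 1.78 and 1.56 FPKM in MIR21-KO, with no overlap and an FDR just above the threshold (fold change 0.99 ± 0.21 on the log2 scale, FDR = 0.0129). HOXA7 had 4.82, 4.67 and 5.55 FPKM in Ctrl and 6.85, 5.73 and 5.95 FPKM in MIR21-KO, and the gap between the nearest libraries was small (fold change 0.30 ± 0.11 on the log2 scale, FDR = 0.0908). The exons of HOXA6 and HOXA7 overlap those of the antisense RNA HOXA-AS3 over 39.3% and 62.5% of their length, and whether strand was used in counting is not stated. HOXA10, a factor of uterine and limb development, had 2.69, 2.33 and 2.82 FPKM in Ctrl and 2.57, 2.53 and 2.27 FPKM in MIR21-KO, and the groups overlapped (fold change -0.083 ± 0.13 on the log2 scale, FDR = 0.654). HOXA13, of the limb tip and hindgut, had 0.741, 0.987 and 0.992 FPKM in Ctrl and 0.823, 0.723 and 1.08 FPKM in MIR21-KO, again with overlap and no call (fold change -0.054 ± 0.24 on the log2 scale, FDR = 0.882). HOXA9 and HOXA11 were under the minimum level at 8 to 24 reads per library, although their MIR21-KO values lay above the Ctrl values.

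**Figure D2:**
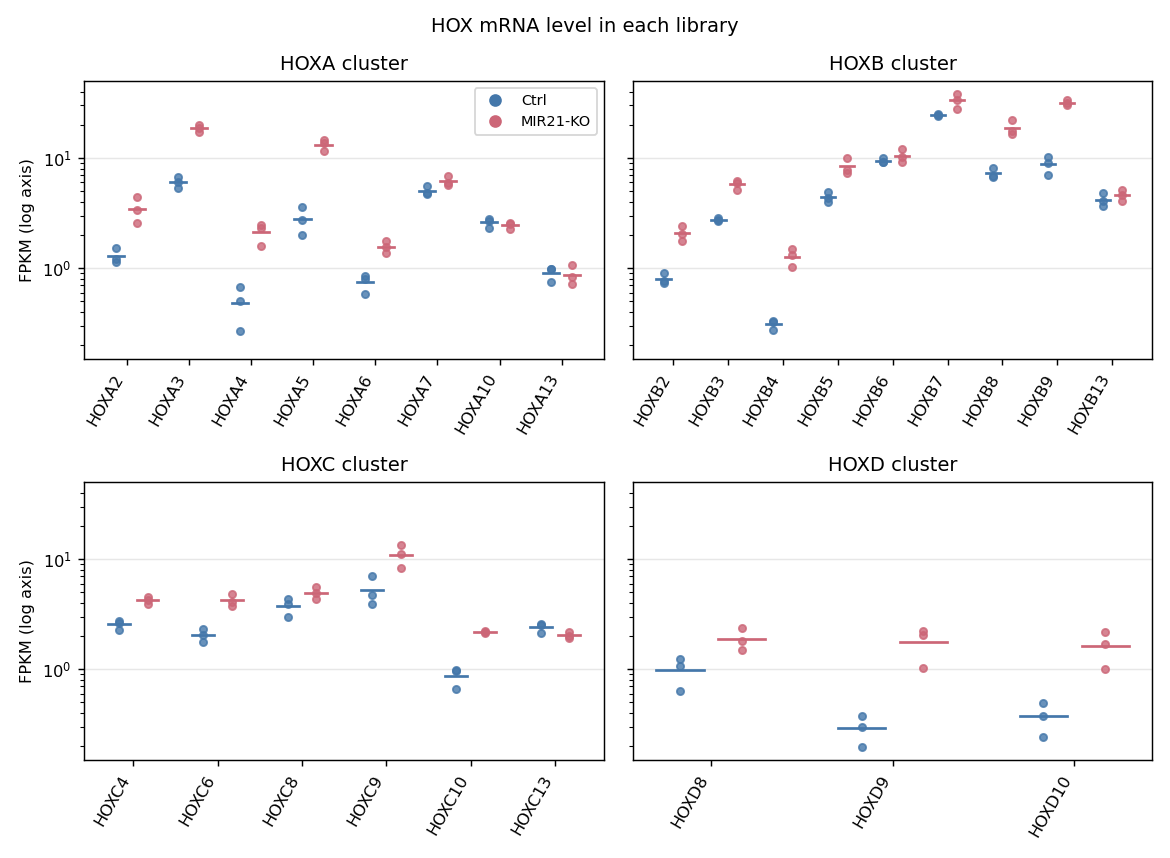
FPKM on a log axis (vertical) of 26 of the 27 HOX genes tested (horizontal, by cluster), with points for the 3 Ctrl and 3 MIR21-KO libraries and lines for the group means. The groups are well apart for HOXA2 to HOXA5, HOXB2 to HOXB5, HOXB8, HOXB9 and HOXD9, and overlap for HOXA10, HOXA13, HOXB6, HOXB13, HOXC8 and HOXC13.

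Promoter sequences were looked up for genes inside and outside this block, to see what the members called higher share at their start sites. RefSeq windows of 300 bases (250 before to 50 after the gene's start, GRCh38.p14) were matched for 20 of the 39 HOX genes, among them 5 of the genes called higher (HOXA2, HOXA3, HOXA4, HOXC4 and HOXD10) and 5 that were tested and not called (HOXA6, HOXA7, HOXA10, HOXA13 and HOXD8). Given here are 2 of the first and 2 of the second kind from the HOXA cluster, 5' to 3' on the gene's strand, where capitals mark TAAT or its complement ATTA, the core word bound by homeodomains.
HOXA2 promoter, chr7:27102634-27102933, minus strand: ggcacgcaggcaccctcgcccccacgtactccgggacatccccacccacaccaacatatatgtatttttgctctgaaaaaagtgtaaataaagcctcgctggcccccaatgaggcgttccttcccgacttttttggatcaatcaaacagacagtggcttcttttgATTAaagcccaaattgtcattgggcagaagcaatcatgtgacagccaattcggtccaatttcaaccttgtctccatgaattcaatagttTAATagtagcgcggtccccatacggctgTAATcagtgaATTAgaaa
HOXA4 promoter, chr7:27130708-27131007, minus strand: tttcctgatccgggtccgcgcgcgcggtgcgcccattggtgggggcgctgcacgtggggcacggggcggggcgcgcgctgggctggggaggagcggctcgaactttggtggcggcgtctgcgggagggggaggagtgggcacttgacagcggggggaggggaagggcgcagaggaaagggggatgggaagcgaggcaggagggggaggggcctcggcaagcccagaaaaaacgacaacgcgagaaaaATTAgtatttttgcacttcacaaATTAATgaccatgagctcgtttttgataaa
HOXA7 promoter, chr7:27156626-27156925, minus strand: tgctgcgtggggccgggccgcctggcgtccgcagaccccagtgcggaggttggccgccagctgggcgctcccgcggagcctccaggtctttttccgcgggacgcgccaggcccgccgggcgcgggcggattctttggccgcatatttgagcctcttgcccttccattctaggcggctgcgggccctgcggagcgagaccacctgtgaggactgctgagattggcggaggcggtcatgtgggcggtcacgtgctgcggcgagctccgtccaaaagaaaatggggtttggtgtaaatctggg
HOXA10 promoter, chr7:27179812-27180111, minus strand: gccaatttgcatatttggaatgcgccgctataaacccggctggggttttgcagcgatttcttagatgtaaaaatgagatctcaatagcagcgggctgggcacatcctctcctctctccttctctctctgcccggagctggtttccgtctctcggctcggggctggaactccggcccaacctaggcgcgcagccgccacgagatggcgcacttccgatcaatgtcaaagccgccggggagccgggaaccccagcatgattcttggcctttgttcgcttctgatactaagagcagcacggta
The word stood in 4 places in the HOXA2 window and in 3 in the HOXA4 window, and in none in the HOXA7 and HOXA10 windows. The contrast is smaller in windows not printed, with 1 place in HOXA3, which was called, and 4 in HOXA6, which was not. Of the called genes with a window, 5 of 5 held TAAT on either strand, and 1 of the 5 not called (HOXA6), where 51% of all 27305 promoters of this length did. The word was not particular to called genes, since 15 of the 20 HOX windows held it (75%). Among them were HOXA9, HOXD3 and HOXD4, under the minimum level, with 7, 5 and 5 places. The windows of called genes also held fewer CG pairs, with a median of 15 (GC content 51.7%) compared with 31 (68%), where the median of all promoters was 14. TAAT is less frequent in GC-rich sequence, so these descriptions are not independent. HOXC4 and HOXC5 share a window. The words TTTATG, bound by CDX proteins, and TGATNNAT, of the HOX-PBX type, were each in 3 of 20 HOX windows on either strand (15%), where 11% and 7.6% of all promoters held them. A TATAAA box on the gene's strand was present in none of the 5 called and 1 of the 5 not called, and in 7.71% of all promoters. The nuclear receptor half-site AGGTCA (either strand) was in none of the 20 HOX windows, where 13.9% of all promoters held it, which says nothing on receptor binding elsewhere in the clusters.

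In the HOXB cluster 6 of 9 tested genes were called higher, in a pair of stretches separated by HOXB6 and HOXB7. Among all tested genes the share called higher was 7.66%. HOXB4, 1 of the 6, entered the test through its MIR21-KO values. HOXB9 (ENSG00000170689, 48621159 to 48626356), a thoracic patterning gene, had 9.04, 10.2 and 6.997 FPKM in Ctrl and 31.3, 33.3 and 29.99 FPKM in MIR21-KO. The lowest MIR21-KO library stood far above the highest Ctrl library (fold change 1.85 ± 0.14 on the log2 scale, FDR = 0.000295), and the gene moved from rank 3 to rank 2 among HOX transcripts by mean FPKM. HOXB8 (ENSG00000120068, 48611377 to 48614939), known from myeloid progenitors, had 6.82, 8.16 and 6.77 FPKM in Ctrl and 21.97, 17.7 and 16.5 FPKM in MIR21-KO, again without overlap (fold change 1.35 ± 0.13 on the log2 scale, FDR = 0.000754). HOXB5 (ENSG00000120075, 48591257 to 48593961), which takes part in branching of the embryonic lung, had 4.35, 4.01 and 4.94 FPKM in Ctrl and 9.89, 7.84 and 7.37 FPKM in MIR21-KO (fold change 0.89 ± 0.14 on the log2 scale, FDR = 0.00434).

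Anterior HOXB genes were higher as well, at lower levels. HOXB3 had 2.71, 2.68 and 2.84 FPKM in Ctrl and 5.07, 5.95 and 6.23 FPKM in MIR21-KO, a tight spread in Ctrl and a clear gap to MIR21-KO (fold change 1.04 ± 0.11 on the log2 scale, FDR = 0.00105). HOXB2, of the hindbrain, had 0.7398, 0.756 and 0.908 FPKM in Ctrl and 2.42, 1.75 and 2.05 FPKM in MIR21-KO (fold change 1.26 ± 0.18 on the log2 scale, FDR = 0.00327). HOXB4 (ENSG00000182742, 48575513 to 48580111), a factor of blood stem cell renewal, had 0.335, 0.322 and 0.272 FPKM in Ctrl and 1.02, 1.304 and 1.498 FPKM in MIR21-KO, from 13 to 16 reads in Ctrl and 52 to 73 in MIR21-KO (fold change 1.73 ± 0.27 on the log2 scale, FDR = 0.00388). Between the stretches stood the most abundant HOX gene of these cells, HOXB7 (ENSG00000260027, 48607227 to 48633572), with 24.8, 24.1 and 25.1 FPKM in Ctrl and 38.3, 33.6 and 28.1 FPKM in MIR21-KO. Its groups did not overlap, but MIR21-KO libraries spread from 28.1 to 38.3 FPKM and the gene was not called (fold change 0.42 ± 0.12 on the log2 scale, FDR = 0.0338). Without MIR21-KO replicate 3 it was called (FDR = 0.00331). HOXB6 had 10.02, 9.18 and 9.24 FPKM in Ctrl and 9.22, 10.2 and 12.05 FPKM in MIR21-KO, with overlapping groups (fold change 0.14 ± 0.11 on the log2 scale, FDR = 0.392). HOXB13, the posterior outlier of the cluster and a prostate and hindgut gene, had 4.06, 3.701 and 4.79 FPKM in Ctrl and 4.62, 5.09 and 4.05 FPKM in MIR21-KO and overlapped between the groups (fold change 0.13 ± 0.14 on the log2 scale, FDR = 0.501). HOXB1 had no read in any library. HOXB3 shares 433 exon bases with HOXB6 and 159 with HOXB4, and reads there cannot be assigned with certainty.

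In the HOXC cluster 3 of 6 tested genes were called higher, where 7.66% of all tested genes were. HOXC10 (ENSG00000180818, 53985065 to 53990279), a hindlimb and lumbar gene, had 0.977, 0.957 and 0.659 FPKM in Ctrl and 2.24, 2.14 and 2.18 FPKM in MIR21-KO, and the MIR21-KO libraries were almost equal (fold change 1.26 ± 0.19 on the log2 scale, FDR = 0.00341). HOXC6 had 2.06, 2.34 and 1.78 FPKM in Ctrl and 4.85, 4.11 and 3.79 FPKM in MIR21-KO (fold change 1.01 ± 0.15 on the log2 scale, FDR = 0.00356). HOXC4 had 2.28, 2.76 and 2.63 FPKM in Ctrl and 3.91, 4.29 and 4.55 FPKM in MIR21-KO, the smallest change among the genes called (fold change 0.71 ± 0.12 on the log2 scale, FDR = 0.00573). Neither overlapped between groups, but HOXC4 and HOXC6 share 484 exon bases, so that part of their reads could belong to the other. HOXC9 (ENSG00000180806, 53994895 to 54003337), the most abundant gene of the cluster, had 3.93, 6.98 and 4.703 FPKM in Ctrl and 13.4, 11.2 and 8.22 FPKM in MIR21-KO, with a wide spread in both groups, and it missed the threshold although they did not overlap (fold change 1.07 ± 0.25 on the log2 scale, FDR = 0.0192). It was called only by voom on recovered reads among the alternatives at this FDR (FDR = 0.00549). HOXC8 had 3.95, 2.95 and 4.34 FPKM in Ctrl and 4.31, 5.53 and 4.94 FPKM in MIR21-KO (fold change 0.40 ± 0.17 on the log2 scale, FDR = 0.121). HOXC13 had 2.496, 2.15 and 2.56 FPKM in Ctrl and 1.94, 2.02 and 2.195 FPKM in MIR21-KO (fold change -0.22 ± 0.13 on the log2 scale, FDR = 0.248). Both overlapped between groups and were not called. HOXC5 and HOXC11 were below the minimum level, and HOXC12 had no read in any library.

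The HOXD cluster had the lowest summed level in Ctrl, and 2 genes of the centre of the cluster were called higher in MIR21-KO cells. Both entered the test through their MIR21-KO values, and 3 HOXD genes were tested. Among all tested genes the share called higher was 7.66%. HOXD9 (ENSG00000128709, 176122720 to 176124937) had 0.378, 0.298 and 0.195 FPKM in Ctrl and 2.24, 2.05 and 1.03 FPKM in MIR21-KO, that is 9, 6 and 5 reads compared with 57, 47 and 25 (fold change 2.22 ± 0.36 on the log2 scale, FDR = 0.00513). HOXD10 (ENSG00000128710, 176108790 to 176119942), a limb and spinal cord gene, had 0.496, 0.242 and 0.3802 FPKM in Ctrl and 1.01, 1.699 and 2.18 FPKM in MIR21-KO (fold change 1.85 ± 0.36 on the log2 scale, FDR = 0.00937). Both stood apart from Ctrl in every library, although the MIR21-KO replicates differed widely among themselves. The HOXD10 call was kept in 4 of 14 alternatives, with FDRs from 0.00558 to 0.0468. HOXD8 had 1.08, 1.24 and 0.6397 FPKM in Ctrl and 2.35, 1.49 and 1.82 FPKM in MIR21-KO and was not called (fold change 0.89 ± 0.28 on the log2 scale, FDR = 0.0501). HOXD11, whose exons share 452 bases with HOXD10, had at most 3 reads in a Ctrl library and 6 to 12 in a MIR21-KO library. HOXD1, HOXD3, HOXD4 and HOXD13 had at most 15 reads in any library and HOXD12 none.

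**Figure D3:**
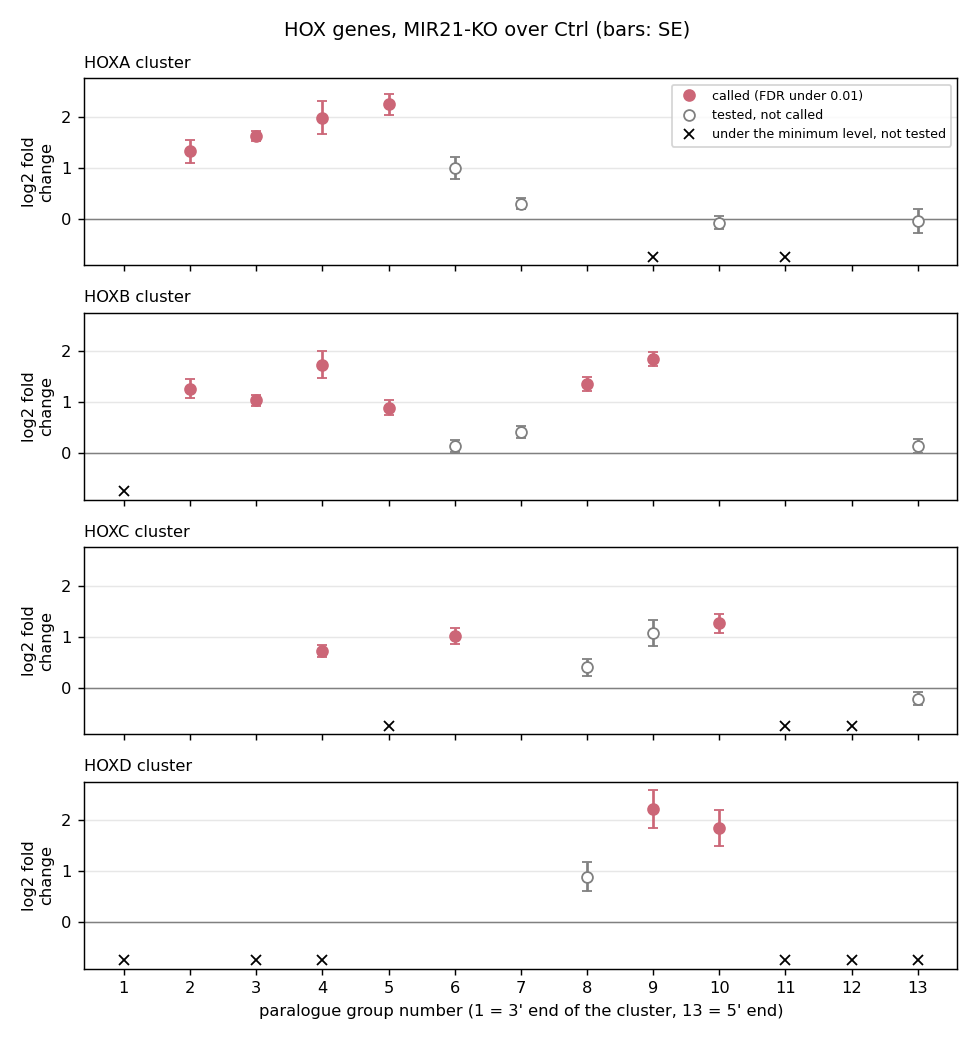
Log2 fold change, MIR21-KO over Ctrl (vertical axis, error bars SE), of the same 26 HOX genes against their paralogue group number (horizontal), a panel per cluster. Filled circles are called at an FDR under 0.01, open circles are tested and not called, and crosses mark the 12 genes under the minimum level. In the HOXA and HOXB clusters groups 2 to 5 are all called, and no gene of group 13 is.

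Across clusters the pattern followed the paralogue number in part. In groups 2 to 5 the 9 tested genes were each called higher, among them HOXA4 and HOXB4 that entered through their MIR21-KO values, while HOXC5, HOXD3 and HOXD4 were under the minimum. Without the minimum, 6 of the 12 genes of these groups were called, where 3.06% of all genes with a read were called higher. HOXA2, HOXA4 and HOXC4 were then not called (FDR = 0.0126, 0.0115 and 0.012). These 9 changes ranged from 0.71 for HOXC4 to 2.24 for HOXA5 on the log2 scale. In groups 6 to 8 all 8 genes were tested and 2 were called, HOXC6 and HOXB8. In groups 9 and 10, 4 of 6 tested genes were called, HOXB9, HOXD9, HOXC10 and HOXD10, of which HOXD9 and HOXD10 entered through their MIR21-KO values. Of the 4 genes of group 13, 3 were tested and 0 were called, with fold changes of -0.054 for HOXA13, 0.13 for HOXB13 and -0.22 for HOXC13. Among all tested genes the share called higher was 7.66%. The split into these groups was made after their values were seen and was not tested. The 12 genes under the minimum level reached at most 0.850 FPKM or 27 reads in a library, and none was called when the minimum was dropped.

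The order of HOX transcripts by mean FPKM also shifted. HOXB7 came first in both groups, with 23.5% of the HOX sum in Ctrl and 16.3% in MIR21-KO. In Ctrl it stood alone at 24.7 ± 0.522 FPKM, followed by HOXB6 (9.48 ± 0.468), HOXB9 (8.74 ± 1.62) and HOXB8 (7.25 ± 0.788), where the libraries of HOXB9 overlapped those of both HOXB6 and HOXB8. In MIR21-KO, HOXB9 (31.5 ± 1.65 FPKM) lay within the range of HOXB7 (33.3 ± 5.12 FPKM), so that these neighbours in the order do not differ beyond their spread. HOXA3 and HOXB8 followed at 18.7 ± 1.36 and 18.7 ± 2.86 FPKM and overlapped each other in their libraries. HOXA5 went from rank 11 to rank 5.

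Some other genes lying within the 4 clusters were higher in MIR21-KO cells too. There were 59 such rows, mostly antisense, other noncoding and miRNA genes with a few protein-coding or readthrough rows. Of these 12 passed the minimum level, 4 were called higher (33.3%) and 0 lower, where 7.66% and 8.38% of all tested genes were. Without a minimum, 3 of the 32 with a read were called higher and 0 lower, where 3.06% of all genes with a read were called higher. Their median log2 fold change was 0.65, where that of all genes was 0.031. HOXA-AS2, which lies between and across HOXA3 and HOXA4 on the other strand, had 1.904, 1.796 and 1.59 FPKM in Ctrl and 5.93, 5.95 and 5.23 FPKM in MIR21-KO (fold change 1.64 ± 0.12 on the log2 scale, FDR = 0.000242). HOTAIRM1, a noncoding RNA next to HOXA2, had 3.83, 3.42 and 2.83 FPKM in Ctrl and 8.05, 10.6 and 8.04 FPKM in MIR21-KO (fold change 1.38 ± 0.16 on the log2 scale, FDR = 0.00139). HOXB-AS1, between HOXB2 and HOXB3, had 2.42, 4.06 and 3.19 FPKM in Ctrl and 7.53, 8.65 and 6.77 FPKM in MIR21-KO (fold change 1.25 ± 0.20 on the log2 scale, FDR = 0.00437). LINC02086, a long noncoding RNA in the wide gap between HOXB9 and HOXB13, had 9.83, 9.64 and 10.03 FPKM in Ctrl and 15.96, 17.6 and 17.8 FPKM in MIR21-KO (fold change 0.79 ± 0.075 on the log2 scale, FDR = 0.000628). All 4 were without overlap between groups. HOXC-AS1 was also separated (0.663, 1.73 and 1.36 FPKM in Ctrl and 4.22, 4.28 and 2.605 FPKM in MIR21-KO) but not called (FDR = 0.0178), as was, downward, RP11-357H14.17 of the HOXB cluster (7.43, 7.22 and 8.15 FPKM in Ctrl and 6.58, 5.58 and 6.33 FPKM in MIR21-KO, fold change -0.30 ± 0.099 on the log2 scale, FDR = 0.0577). HOXA10-AS (log2 fold change -0.12), HOXB-AS3 (0.17) and HOXD-AS2 (0.16) overlapped between groups, and HOTAIR was below the minimum level at 0.116 ± 0.0296 FPKM in Ctrl and 0.399 ± 0.0815 FPKM in MIR21-KO. HOXA-AS2 shares 374 exon bases with HOXA3 and 254 with HOXA4, and HOXB-AS1 shares 374 with HOXB3, and without a stated use of strand such reads cannot be told apart.

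Protein-coding genes next to the clusters included 3 that were called, a share near the background. The nearest 3 on either side of each cluster gave 24 genes, of which 21 were tested, 2 called higher (9.52%) and 1 lower (4.76%), where 7.66% and 8.38% of all tested genes were, and their median log2 fold change was -0.13, where that of all genes tested was -0.017. SKAP2, an adaptor protein of immune cell signaling and the nearest coding gene beyond the 3' end of the HOXA cluster, had 9.55, 9.096 and 9.14 FPKM in Ctrl and 17.4, 18.3 and 22.2 FPKM in MIR21-KO (fold change 1.05 ± 0.10 on the log2 scale, FDR = 0.000807). CALCOCO1, an autophagy receptor on the HOXC13 side of the HOXC cluster, had 2.94, 2.46 and 2.83 FPKM in Ctrl and 5.67, 6.37 and 5.52 FPKM in MIR21-KO (fold change 1.07 ± 0.11 on the log2 scale, FDR = 0.00102). CBX3, a heterochromatin protein gene on the SKAP2 side of HOXA, went from 79.3 ± 2.78 to 61.2 ± 1.18 FPKM (fold change -0.37 ± 0.068 on the log2 scale, FDR = 0.00758), a call kept in 6 of 14 alternatives and, of the libraries left out in turn, only without MIR21-KO replicate 3. Around HOXB and HOXD, 0 of the flanking genes were called. Of these, ATP5G1, a subunit of mitochondrial ATP synthase beside HOXB, had 72.2, 83.2 and 78.5 FPKM in Ctrl and 60.1, 52.4 and 43.6 FPKM in MIR21-KO, lower without overlap but above the threshold (fold change -0.59 ± 0.13 on the log2 scale, FDR = 0.0143), and HNRNPA3, an RNA-binding protein gene beside HOXD, had 87.3, 84.4 and 84.02 FPKM in Ctrl and 74.4, 72.8 and 71.3 FPKM in MIR21-KO (fold change -0.23 ± 0.067 on the log2 scale, FDR = 0.0416). Regardless of the test, 6 of the 24 flanking genes had all MIR21-KO values above Ctrl and 8 had all below, where 16.8% and 15.8% of genes with a read did.

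**Figure D4:**
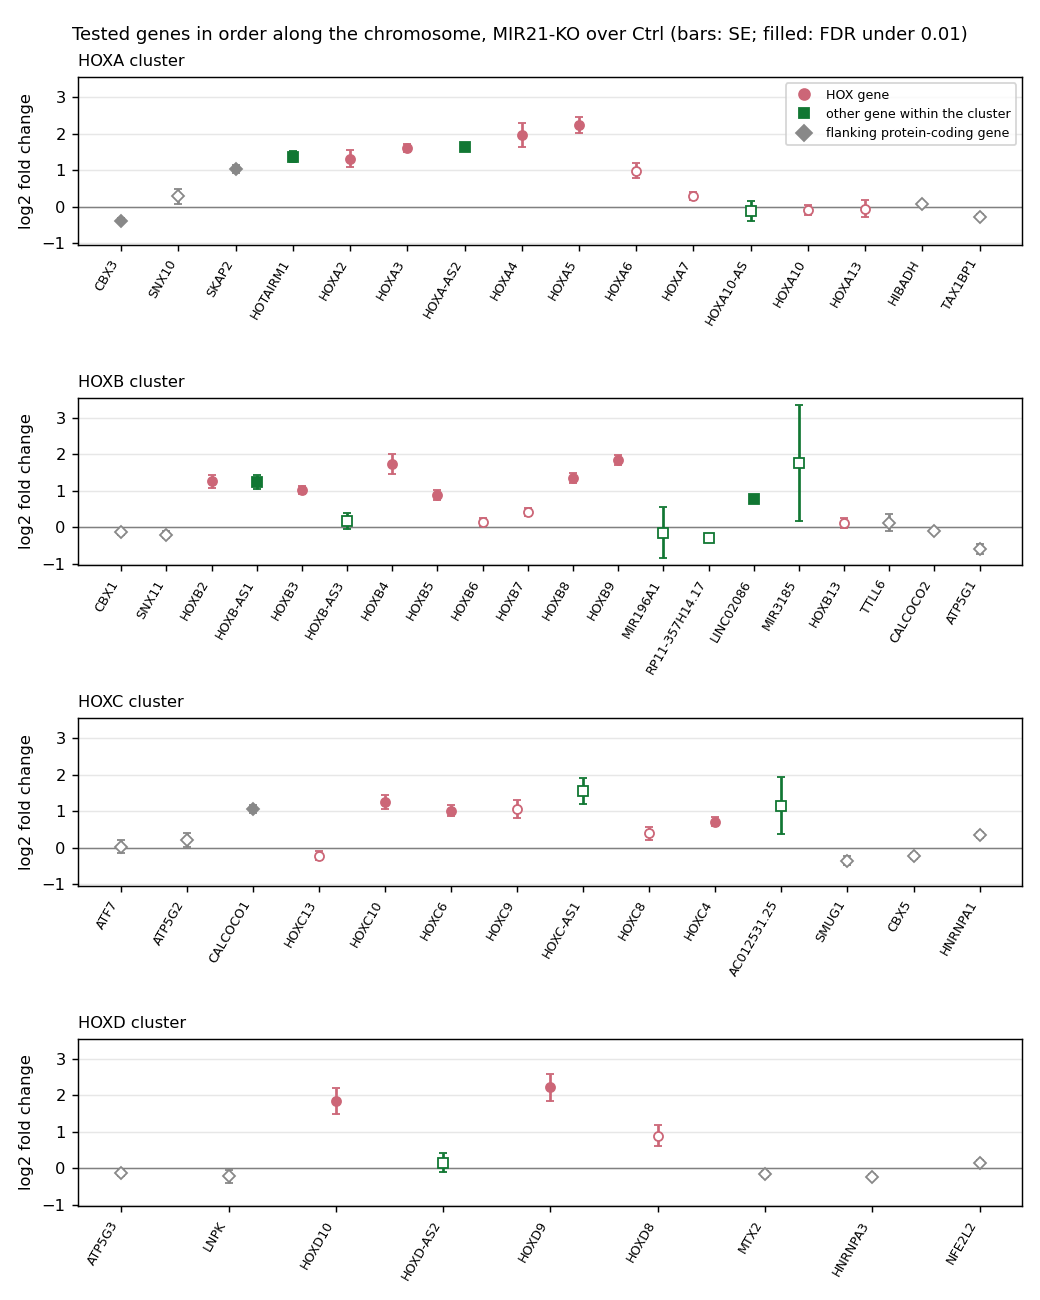
Log2 fold change, MIR21-KO over Ctrl (vertical axis, error bars SE), of tested genes in and around each cluster in their order along the chromosome (horizontal, equal spacing). Circles are HOX genes, squares other genes within the cluster and diamonds flanking protein-coding genes, filled where the FDR was under 0.01. The called HOX genes stand above 0 next to HOTAIRM1, HOXA-AS2 and HOXB-AS1, and of the flanking genes SKAP2, CALCOCO1 and CBX3 are called, while ATP5G1 lies lower than CBX3 without a call.

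The list of TALE cofactors holds the PBX and MEIS genes and other genes of the TALE family, such as TGIF2. In this list 2 of 9 tested genes were called higher (22.2%) and 0 lower. Of all tested genes 7.66% were called higher and 8.38% lower. MEIS3 had 5.89, 6.39 and 6.41 FPKM in Ctrl and 17.5, 15.3 and 12.7 FPKM in MIR21-KO, without overlap (fold change 1.26 ± 0.13 on the log2 scale, FDR = 0.000828). TGIF2, a repressor of this family, had 3.405, 3.69 and 2.65 FPKM in Ctrl and 5.43, 5.44 and 5.07 FPKM in MIR21-KO and was at the edge of the threshold (fold change 0.71 ± 0.14 on the log2 scale, FDR = 0.00994), and the call was lost under 11 alternatives. MEIS1 was below the minimum level and MEIS2 had a log2 fold change of -0.42 (FDR = 0.105).

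Among 25 chromatin regulators of HOX genes, all above the minimum level, 1 was called higher (4%) and 3 lower (12%), near the 7.66% and 8.38% of all tested genes, and the median log2 fold change was -0.11. The 3 called lower were the core subunits of Polycomb repressive complex 2, which methylates histone H3 at silent HOX genes. SUZ12 had 20.48, 19.1 and 19.02 FPKM in Ctrl and 11.2, 12.3 and 14.3 FPKM in MIR21-KO (fold change -0.64 ± 0.10 on the log2 scale, FDR = 0.00503). EZH2, the methyltransferase, had 14.3, 14.04 and 13.6 FPKM in Ctrl and 10.2, 10.3 and 9.27 FPKM in MIR21-KO (fold change -0.49 ± 0.075 on the log2 scale, FDR = 0.00386). EED, which binds the methylated histone, had 5.55, 5.23 and 5.41 FPKM in Ctrl and 3.96, 3.53 and 3.42 FPKM in MIR21-KO (fold change -0.56 ± 0.098 on the log2 scale, FDR = 0.00636). In all 3 the groups did not overlap, and the calls were kept in 7 of 14 alternatives for SUZ12 and in 8 of 14 for EZH2 and for EED. All 3 were lost when any Ctrl library or MIR21-KO replicate 2 was left out. EZH1, the alternative methyltransferase, was not called (log2 fold change 0.25, FDR = 0.0618). PHC1, a subunit of the other Polycomb complex, had 6.54, 5.31 and 5.27 FPKM in Ctrl and 8.38, 8.44 and 8.91 FPKM in MIR21-KO (fold change 0.59 ± 0.11 on the log2 scale, FDR = 0.00766) and was called in 6 of 14 alternatives, of the libraries left out in turn only without Ctrl replicate 1. KMT2A, the trithorax-type methyltransferase known for keeping HOX genes active, overlapped between groups, with 3.91, 2.498 and 2.92 FPKM in Ctrl and 1.84, 2.54 and 4.16 FPKM in MIR21-KO (FDR = 0.697). WDR5, a core subunit of the same kind of complex, had 33.1, 35.4 and 35.5 FPKM in Ctrl and 27.9, 26.04 and 23.05 FPKM in MIR21-KO, lower without overlap and just short of a call (fold change -0.44 ± 0.089 on the log2 scale, FDR = 0.0112), and was called in 5 of 14 alternatives.

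Some retinoic acid genes were higher and 1 was lower. Of 15, 11 were tested, 3 called higher (27.3%) and 1 lower (9.09%), where 7.66% and 8.38% of all tested genes were. Regardless of the test, 7 of the 14 with a read had all MIR21-KO values above Ctrl and 4 had all below. Among all genes with a read these shares were 16.8% and 15.8%. RARB, a retinoic acid receptor gene, had 1.95, 2.01 and 2.31 FPKM in Ctrl and 10.3, 12.4 and 13.97 FPKM in MIR21-KO (fold change 2.49 ± 0.14 on the log2 scale, FDR = 0.000104). CYP26B1, which degrades retinoic acid, had 1.13, 1.24 and 1.84 FPKM in Ctrl and 6.72, 6.37 and 6.59 FPKM in MIR21-KO (fold change 2.18 ± 0.18 on the log2 scale, FDR = 0.000429). DHRS3, a retinaldehyde reductase, had 19.8, 21.3 and 22.7 FPKM in Ctrl and 62.5, 49.3 and 42.7 FPKM in MIR21-KO (fold change 1.26 ± 0.14 on the log2 scale, FDR = 0.00138). These 3 were separated in every library and called in all 14 alternatives. ALDH1A3, a retinoic acid producing enzyme, had 4.56, 4.16 and 4.34 FPKM in Ctrl and 1.59, 1.94 and 2.71 FPKM in MIR21-KO and was lower (fold change -1.06 ± 0.19 on the log2 scale, FDR = 0.00755), a call kept in 6 of 14 alternatives and, of the libraries left out in turn, only without MIR21-KO replicate 3, while ALDH1A1, of the same function and very abundant in A549 cells, had 2016, 1992 and 2033 FPKM in Ctrl and 2774, 2790 and 2758 FPKM in MIR21-KO and was just short of the threshold (fold change 0.46 ± 0.096 on the log2 scale, FDR = 0.012). CYP26A1 went the other way from CYP26B1, with 1.35, 1.35 and 1.38 FPKM in Ctrl and 0.272, 0.632 and 0.571 FPKM in MIR21-KO. It was lower without overlap but was not called (FDR = 0.0158). Whether retinoic acid signaling differed between the groups was not tested. Of the CDX genes, homeobox activators of posterior HOX genes in gut, CDX1 and CDX4 had no read and CDX2 at most 6 per library.

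**Figure D5:**
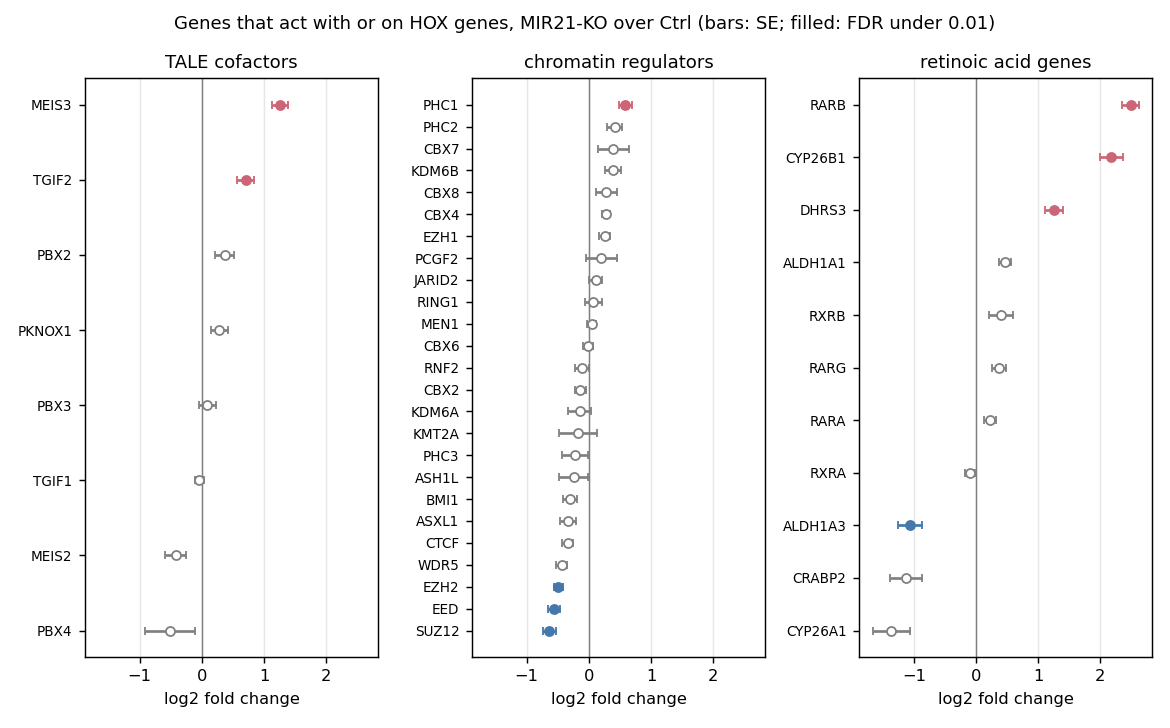
Log2 fold change, MIR21-KO over Ctrl (horizontal axis, error bars SE), of tested TALE cofactors (8 of the 9), chromatin regulators and retinoic acid genes (vertical, ordered by fold change). Filled red circles are called higher and filled blue circles called lower at an FDR under 0.01; EZH2, EED and SUZ12 are the lowest of the chromatin regulators, and RARB and CYP26B1 the highest of the retinoic acid genes.

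Some marker genes of the line were called in the same comparison. Of 10 markers of the A549 line, epithelial genes and the mesenchymal genes VIM and CDH2 that it also expresses, 7 were not called. The 2 called higher (20%) were VIM and CDH2 (log2 fold changes 1.19 and 0.83) and the 1 called lower (10%) was CDH1 (-1.48). Of all tested genes 7.66% were called higher and 8.38% lower. The markers summed to 2998 to 3177 FPKM in Ctrl and 2570 to 3357 FPKM in MIR21-KO. Of 7 lung lineage markers 3 were tested, of which FOXA1 was called higher (1.80) and FOXA2 lower (-0.84). The list summed to 17.2 to 18.7 FPKM in Ctrl and 12.6 to 13.6 FPKM in MIR21-KO. Of 15 markers of blood, endothelium and fibroblasts, 2 passed the minimum level, LUM and COL1A1, and 0 of these were called (FDR = 0.506 and 0.334). COL3A1 and PDGFRB, both under the minimum, were separated upward. The list summed to 5.67 to 5.91 FPKM in Ctrl and 5.59 to 7.86 FPKM in MIR21-KO, and CD3E, HBB and COL1A2 were among those with no read in any library. The fibroblast gene COL1A1 was the highest of these 15, at 3.62, 3.28 and 3.33 FPKM in Ctrl and 3.33, 3.89 and 4.51 FPKM in MIR21-KO. The part of these changes in the HOX result was not tested.

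Finally, the 3' UTRs of the HOX mRNAs were searched for sites of miR-21-5p and of miR-10a-5p, miR-196a-5p, miR-196b-5p and miR-615-3p, which are encoded in the clusters. MIR10B, MIR3185 and MIR7704 lie there as well and their microRNAs were not searched. The mature sequences are given 5' to 3' with the seed (bases 2 to 8) in capitals, from RefSeq (GRCh38.p14), since a match to the seed is what was counted.
miR-21-5p: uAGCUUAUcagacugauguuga
miR-196a-5p: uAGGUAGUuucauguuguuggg
miR-196b-5p: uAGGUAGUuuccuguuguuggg
miR-10a-5p: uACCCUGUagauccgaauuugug
miR-615-3p: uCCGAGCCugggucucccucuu
MIR196A1 lies in the HOXB cluster and MIR196A2 in the HOXC cluster and both encode miR-196a-5p, while MIR196B lies in the HOXA cluster, and miR-196a-5p and miR-196b-5p share the seed. PolyA libraries do not capture mature microRNAs, so their own levels are not known from these data. The longest annotated 3' UTR was used for each gene, and all 39 HOX genes had one.

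Matches to the miR-21-5p seed were rare in HOX mRNAs. A heptamer match to the seed was found in 1 of 39 genes (2.56%), HOXB13, which was not called, where 9.88% of 11646 tested genes with a 3' UTR held one. The full 8mer was found in 0 of 39, where 2.87% of tested genes held it. None of the 15 genes called higher thus carried a heptamer match in the UTR examined.

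Sites of miR-196 were frequent. The heptamer was present in 9 of 39 HOX genes (23.1%), where 8.05% of tested genes held it, and the 8mer in 6 (15.4%), HOXA5, HOXA7, HOXA9, HOXB6, HOXB7 and HOXC8, where 1.61% did. HOX paralogues share ancestry, so that these genes are not independent of each other. Among the 9, HOXA5 was the only gene called higher, and the 8 with a read had a median log2 fold change of 0.35, where the 28 other HOX genes with a read had 1.0, a difference that was seen in the data and not tested. HOXB8 is counted among the 28, because its site lacks the exact heptamer. The most extensive pairing stood in HOXB8, whose site pairs with miR-196a-5p over all 22 bases if 1 G-U pair is counted, as in 2 of 11646 tested genes, HOXB8 included (0.0172%). The site starts at base 411 of the 856 bases of the HOXB8 3' UTR. The sites are given 5' to 3' as RNA, with capitals for bases that pair with miR-196a-5p by the standard rules, and the last base stands opposite its base 1.
HOXB8: CCCAACAACAUGAAACUgCCUA
HOXA5: auauuuuuauUcAAACUACCUA
HOXA7, the last of 4: CCuAcuccCcUaAAACUACCUA
HOXB7: aaCAcugAaAaaAuACUACCUA
HOXC8: uaaAuCuuuAacAuACUACCUA
HOXB8, with the G-U pair inside the seed, was called higher (1.35), as was HOXA5 (2.24), whereas HOXA7 (0.30), HOXB7 (0.42) and HOXC8 (0.40) were not. Heptamers of miR-10a-5p were found in 3 of 39 HOX genes (7.69%), below the 14.9% of tested genes, and the 8mer in 2 (5.13%), HOXA3 and HOXB3, above the 2.34% of tested genes. Those of miR-615-3p were found in 2 of 39 (5.13%), where 3.20% of tested genes held one.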

How the data were processed

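RNA-seq of 6 A549 libraries, 3 Ctrl and 3 MIR21-KO, was analysed, with groups and replicate numbers from the sample titles. The deposited table holds 58174 genes with gene length, FPKM per library and the authors' own log2 fold changes, p-values and FDRs, which were not used. The submitters' processing notes name cutadapt 1.14, HISAT2 2.1.0, SAMtools 1.5, featureCounts 1.5.3, edgeR 3.18.1 and build hg38. How strand and reads of overlapping genes were counted is not given in the sources used here. The authors converted gene counts to FPKM with a library size of their own, 0.950 to 1.030 times the recovered reads. FPKM times length gave whole reads for 100% of values (tolerance 0.05). A listed 0 may reflect processing, since 37 of 37 mitochondrial genes are at 0 throughout. No read allows up to 3 reads, counting error only.

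With limma 3.58.1 (R 4.3.3), log2(FPKM + 0.1) of 16006 genes was fitted by eBayes with trend and robust fitting and no covariate, two-sided, with Benjamini-Hochberg FDRs. The procedure was first tested on simulated data with known changes. These were placed only in well-covered genes, so the simulation does not cover changes in genes with few reads, such as HOXD9. Alternatives were pseudocounts of 1 and 0.01, no minimum, a minimum of 1 FPKM, median-ratio scaling, a replicate block, leaving out each library, voom on recovered reads, an FDR of 0.05 and eBayes without trend or robust fitting. The test was chosen for FPKM values, and a negative binomial count test of the recovered reads was not run. Positions, exons and 3' UTRs (longest, at least 30 bases) came from GENCODE 29, which matched 57836 genes (99.4%). Symbols of the 39 members and the lists of neighbours, cofactors, regulators and markers were chosen with earlier results of these data known. Named were the members (1 is not reported here), all called genes of the lists and others chosen after their values were seen (HOXC-AS1, HOTAIR, MEIS2, EZH1, KMT2A, ALDH1A1, CYP26A1, ATP5G1, WDR5 among them). Protein sequences were not used here. Figures were drawn with matplotlib 3.10.9.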

Additional observations from a re-analysis of the deposited data

How the results depend on the processing

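All 15 HOX genes called higher kept their direction under each alternative in which they were tested, and 5 of them were called under all 14 run at an FDR under 0.01. The number of HOX genes called higher was 5 to 13 when a library was left out, and 0 were lower in each alternative. HOXA13, which was not called, ranged from -0.20 to 0.060 on the log2 scale when a library was left out and changed sign without Ctrl replicate 2 (0.0066), Ctrl replicate 3 (0.0097) or MIR21-KO replicate 2. A replicate block gave 5 HOX genes, 651 genes in all, 1 TALE cofactor, 3 upstream regulators (chromatin, retinoic acid and CDX genes together, 8 as reported) and 1 flanking gene. Same-numbered libraries did not deviate together (correlations of -0.17, -0.018 and -0.017) and not every library correlated best with its own number. With 3 libraries per group these correlations cannot exclude a shared batch. Over all genes, 2568 were called as reported, 5114 at an FDR under 0.05, and 788 to 3400 with a library left out. TALE cofactors numbered 1 in place of 2 with median-ratio scaling, no minimum, no trend or robust fitting, a pseudocount of 0.01 or with any one library left out. Upstream regulators numbered 16 at an FDR under 0.05, 5 without the minimum, 5 without trend or robust fitting and 3 to 13 with a library left out. Flanking genes numbered 7 at an FDR under 0.05 and 5 by voom. Median-ratio scaling moved the median of all genes by -0.006. Fewer libraries, the terms of the block and added genes are part of these settings, and beyond that the cause was not tested. Genes with few reads, such as the 12 HOX genes under the minimum, are limited by depth. Of these, HOXD4, HOXD3 and HOXC5 also share 80.5%, 62.2% and 59.9% of their exon length with another gene on the same strand. How reads there were counted is not stated.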
